A study of Homo sapiens with 8 samples.

Results

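Transcripts of 9 genes whose products act on cyclin D1 protein after it is made were followed: GSK3B, XPO1, SKP1, FBXO4, CRYAB, FBXO31, CUL4A, DDB1 and AMBRA1. They were chosen by name for what their products do, with earlier results of these data known. They make up 9 of the 18231 genes measured. Each gene was read by the probe set annotated to it alone that had the highest mean over all arrays, and its other probe sets served as a check, giving 25 probe sets in all.

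The RNA came from JVM13 cells, an established line of human B cells that originated in a case of prolymphocytic leukaemia. The cells carried a doxycycline-inducible construct for T286A cyclin D1 (3 arrays), for wild-type cyclin D1 (3 arrays), or the matching empty vector, titled control (2 arrays). All groups, the empty vector cells included, received 0.1 µg/mL doxycycline. The labels do not say how long induction lasted, how many independently made populations or clones stand behind a construct, or whether replicates were separate cultures, so the p-values rest on the spread among these arrays, part or all of which may be technical.

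Cyclin D1 is a short-lived protein. The kinase GSK3B phosphorylates it at threonine T286, and the phosphorylated protein leaves the nucleus through the exportin XPO1, also called CRM1, and is ubiquitylated and degraded. The T286A form has an alanine at that site and is therefore stable. Several cullin-RING ubiquitin ligases have been assigned to the protein: SCF ligases, in which the adaptor SKP1 holds an F-box receptor such as FBXO4 or FBXO31, and a CUL4-DDB1 ligase with AMBRA1 as its receptor for D-type cyclins. The arrays measured transcripts, not protein amount, phosphorylation or location.

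Values are log2 expression values made by the authors with robust multi-array averaging (RMA), which gives all arrays nearly the same distribution, so each difference is relative to the other genes. Differences are on this log2 scale and come from limma fitted to all 18231 genes with the 3 groups sharing 1 estimate of the spread. Genes whose two-sided p stayed under 0.05 after Benjamini-Hochberg adjustment over the whole table are referred to as called. Fewer cells of a kind and less RNA per cell cannot be told apart in such bulk samples. All 6 measured B-cell markers lay above the median of all genes (5.94) in each group, while 0 of 7 T and NK cell markers, 0 of 6 epithelial and stromal markers and 1 of 6 myeloid markers, ITGAM, did. The B-cell surface receptor CD22 fell with wild type, by 0.40 ± 0.080 against empty vector (adjusted p = 0.0498), and its part in the results was not tested. That call was lost in all 8 fits that leave out 1 array (adjusted p from 0.0607 to 0.251), under housekeeping centring (0.073), with only the groups compared (0.122) and with the replicate number as a block (0.121). The CD22 call was kept with array weights, with the filter on dim genes and with the mean of all probe sets (adjusted p down to 0.00555 by limma). With both constructs CD22 was called under that filter (-0.29, adjusted p = 0.0305) and under that mean (-0.39, adjusted p = 0.02). Under that mean it was also called for T286A minus wild type (0.35, adjusted p = 0.0359). Array medians lay between 5.47 and 5.62, with the lowest in wild-type replicate 2 and the next lowest at 5.57. Wild-type replicate 2 lay apart from its group: across probe sets it correlated with the other wild-type arrays at 0.994 to 0.995, against 0.997 between those others, and limma gave it an array weight of 0.513. Where leaving it out moved a wild-type difference of the 9 genes by over 1.5 times or turned its sign, which it did for SKP1, FBXO4, FBXO31 and CUL4A, the value without it is given too.

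None of the 9 transcripts passed the limma test in any of the 4 comparisons. With T286A against empty vector 0 of 9 were called, against 0.532% of all genes, and with wild type against empty vector 0 of 9, against 1.74%. Both constructs averaged and set against empty vector gave 0 of 9, against 1.4%, and T286A against wild type 0 of 9, against 0.987%. A count of 0 of 9 lies near these backgrounds and sets the genes apart from nothing. By direction, the called shares of all genes were 0.34% higher and 0.192% lower with T286A, 0.603% higher and 1.14% lower with wild type, 0.702% higher and 0.697% lower with both constructs, and 0.598% higher and 0.389% lower for T286A against wild type. Before adjustment, 2 of the 9 had p under 0.05 with T286A against empty vector, where 12.1% of all genes did. The number was 0 with wild type (13.5% of all genes), 0 with both constructs together (12.5%) and 1 between T286A and wild type (13.6%).

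The intervals say more than the calls, with each gene read by its brightest probe set. With T286A against empty vector the differences of the 9 genes ran from -0.21 to 0.18, and their 95% intervals stayed between 0.746-fold and 1.26-fold. With wild type against empty vector the differences ran from -0.15 to 0.08 and the intervals stayed between 0.777-fold and 1.21-fold. T286A against wild type gave differences from -0.17 to 0.16 and intervals between 0.778-fold and 1.23-fold. Some dimmer probe sets of the same genes had wider intervals, such as -0.54 to 0.50 for one of DDB1 with T286A against empty vector. The induced gene moved on another scale: CCND1, which encodes cyclin D1, stood at 11.25, 10.86 and 10.95 in T286A arrays and at 10.98, 11.13 and 11.07 in wild-type arrays, against 5.25 and 4.98 in empty vector arrays. Its differences from empty vector were 5.90 ± 0.13 with T286A and 5.95 ± 0.13 with wild type (SE, adjusted p = 5.54e-07 and 5.22e-07 by limma), and T286A minus wild type was -0.04 (adjusted p = 0.902). To be called, a gene with the errors of these 9 would have needed a difference of 0.38 to 0.58 with T286A against empty vector, 0.32 to 0.48 with wild type against empty vector and 0.31 to 0.47 with T286A against wild type. With these errors, smaller observed differences were not called in this fit of 8 arrays, and the size needed changes with the setting. True changes near or below that size can therefore go uncalled. RMA values of dim probe sets also understate fold changes.

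**Figure D1:**
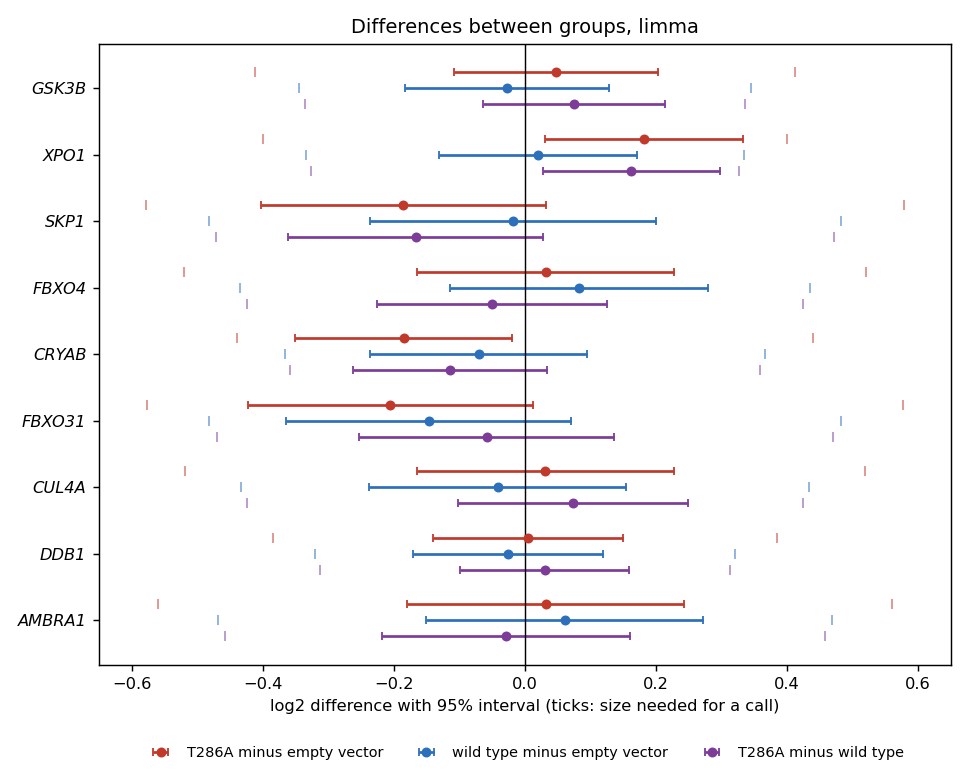
Log2 differences (points) with 95% intervals (bars) for the 9 genes in 3 comparisons, limma on 8 arrays; the short ticks mark the size of difference that would have been called. All points lie between -0.21 and 0.18, and every interval ends inside its ticks.

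As a group the 9 genes had a median absolute difference below that of all genes in each comparison of a pair of groups. The genes were not matched for level. Of the 9, 8 lay at or above the median level, and they were set against genes of every level. Whether level accounts for the smaller differences was not tested. The median absolute difference was 0.05 with T286A against empty vector, where it was 0.09 over all genes, 0.04 against 0.10 for wild type against empty vector, and 0.07 against 0.09 for T286A against wild type. Their signed medians were 0.03, -0.03 and -0.03 in these comparisons. The SD within groups ranged from 0.0325 for DDB1 to 0.105 for SKP1, with a median of 0.0873, where the median over all genes was 0.116. Both constructs were set against the same 2 empty vector arrays, so those comparisons are not independent.

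GSK3B is the kinase that marks T286. Its brightest probe set stood at 10.07, 10.12 and 10.14 in T286A arrays, at 10.07, 10.04 and 9.98 in wild-type arrays and at 10.01 and 10.11 in empty vector arrays. The 3 groups overlapped, and all 8 arrays lay within 0.152 of each other. The difference of T286A from empty vector was 0.05 ± 0.068 (95% interval -0.11 to 0.20, adjusted p = 0.859 by limma), wild type minus empty vector was -0.03 ± 0.068, and T286A minus wild type was 0.08 ± 0.061 (adjusted p = 0.633). A further GSK3B probe set gave 0.13 for T286A minus wild type and 0.01 for T286A minus empty vector. It gave -0.12 for wild type minus empty vector, and none of these differences was called. In that further probe set every wild-type array lay below every array of the other groups, unlike in the brightest. GSK3A, MAPK3, DYRK1A, DYRK1B and CHUK are other kinases linked to cyclin D1 phosphorylation or turnover. Of these 5 genes, 0 were called in any comparison by limma. The smallest p among them belonged to DYRK1B with wild type against empty vector, -0.26 ± 0.11 (adjusted p = 0.363).

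XPO1 carries proteins with a nuclear export signal out of the nucleus, phosphorylated cyclin D1 among them. Its brightest probe set stood at 11.02, 11.01 and 10.96 in T286A arrays, at 10.88, 10.84 and 10.77 in wild-type arrays and at 10.84 and 10.79 in empty vector arrays. Every T286A array lay above every array of the other groups, while wild type and empty vector overlapped. T286A minus empty vector was 0.18 ± 0.066, or 1.13-fold (95% interval 1.02 to 1.26, adjusted p = 0.309 by limma), and T286A minus wild type was 0.16 ± 0.059, or 1.12-fold (interval 1.02 to 1.23, adjusted p = 0.287). Wild type minus empty vector was 0.02 ± 0.066, with an interval from -0.13 to 0.17. XPO1 thus supplied the single unadjusted p under 0.05 in T286A against wild type (0.0243 by limma, adjusted p = 0.287), and it was not called.

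The other XPO1 probe sets did not repeat the difference between the forms. T286A minus wild type was 0.01 to 0.05 in the other 3 XPO1 probe sets, against 0.16 in the brightest. In T286A minus empty vector they gave 0.07 to 0.18, the same sign throughout. In wild type minus empty vector they gave 0.03 to 0.15, where the brightest gave 0.02. Averaged over its 4 probe sets, XPO1 differed by 0.13 for T286A minus empty vector (adjusted p = 0.423 by limma) and by 0.06 for T286A minus wild type (adjusted p = 0.662).

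Export through XPO1 depends on the small GTPase RAN and the proteins that load and discharge it. Of 17 genes of the Ran cycle, the nuclear pore and other exportins, 0 were called in any comparison by limma. Before adjustment, p was under 0.05 for 2 higher and 0 lower genes with T286A against empty vector, and for 2 higher and 1 lower genes between T286A and wild type. Over all genes, 12.1% and 13.6% had such a p in these comparisons, so the counts of 17 lie near the background. RANGAP1, which makes RAN hydrolyse its GTP, had the smallest p. It stood at 10.31, 10.32 and 10.32 in T286A arrays and at 10.10, 10.11 and 10.09 in wild-type arrays, with 10.15 and 10.18 in empty vector arrays, so that T286A minus wild type was 0.22 ± 0.053 (adjusted p = 0.133). With genes below the median level filtered out, RANGAP1 was called (adjusted p = 0.028), and the list held 1 called gene in that comparison and 1 with wild type against empty vector. Among all 9116 genes kept by that filter, 381 and 629 were called in these comparisons. The list medians were 0.06 with T286A and 0.02 with wild type, each against empty vector.

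**Figure D2:**
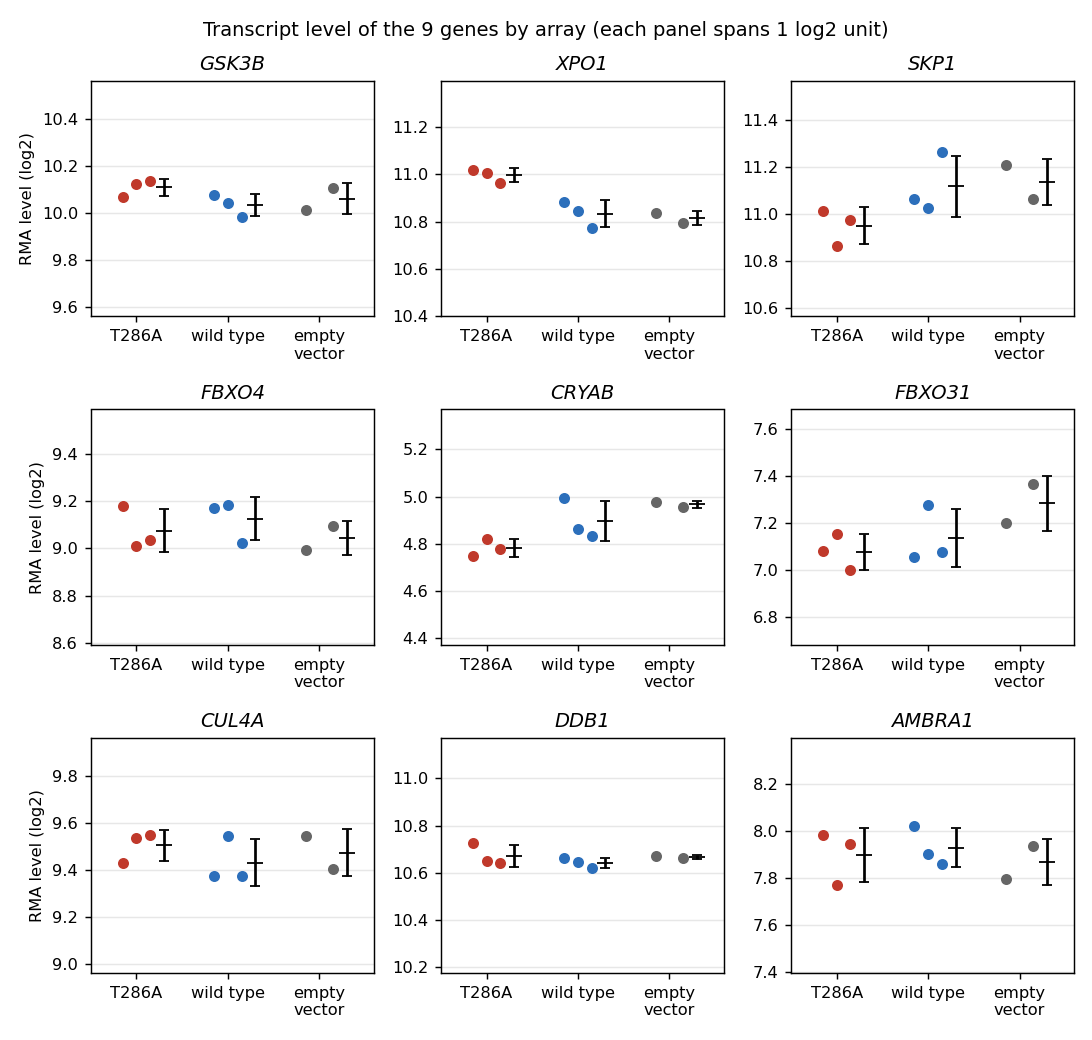
RMA log2 level of each of the 9 genes in every array, by group (points: arrays; bars: mean ± SD; 3 T286A, 3 wild-type and 2 empty vector arrays); each panel spans 1 log2 unit. XPO1 is highest in the T286A arrays (10.96 to 11.02), and SKP1 and CRYAB are lowest in them.

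SKP1 is the adaptor that links F-box receptors to the cullin of SCF ligases. It stood at 11.02, 10.87 and 10.97 in T286A arrays, at 11.06, 11.03 and 11.27 in wild-type arrays and at 11.21 and 11.07 in empty vector arrays. The T286A arrays lay below all others, with their highest close to the lowest wild-type array. T286A minus empty vector was -0.19 ± 0.095 (interval -0.40 to 0.03, adjusted p = 0.503 by limma) and T286A minus wild type was -0.17 ± 0.085 (adjusted p = 0.437). Without wild-type replicate 3, the highest array, T286A minus wild type was -0.09, and without replicate 2 it was -0.21. Wild type minus empty vector was -0.02 with all arrays and 0.03 without wild-type replicate 2. Without empty vector replicate 1, T286A minus empty vector was -0.12. The other SKP1 probe sets went the other way, with T286A minus wild type at 0.08 and 0.11 and T286A minus empty vector at 0.02 and 0.08. Averaged over all its probe sets, SKP1 differed by 0.01 for T286A minus wild type. A probe set annotated to both SKP1 and SKP1P2 was not used, and the name of the brightest SKP1 probe set carries the manufacturer's suffix for probes that may also bind other transcripts, so its level is uncertain.

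FBXO4 is the F-box receptor that recognises phosphorylated cyclin D1 together with CRYAB. FBXO4 stood at 9.18, 9.01 and 9.04 in T286A arrays, at 9.17, 9.19 and 9.02 in wild-type arrays and at 8.99 and 9.10 in empty vector arrays. The groups overlapped. The differences were 0.03 ± 0.086 for T286A minus empty vector, 0.08 ± 0.086 for wild type minus empty vector and -0.05 ± 0.077 for T286A minus wild type (interval -0.23 to 0.12, adjusted p = 0.81 by limma). Without wild-type replicate 2, FBXO4 differed by 0.05 for wild type minus empty vector and by -0.02 for T286A minus wild type. The other 2 FBXO4 probe sets, dim ones with means of 4.59 and 4.28, gave differences of 0.01 and 0.21 for T286A minus empty vector, neither called. For wild type minus empty vector they gave 0.13 and 0.19, and for T286A minus wild type -0.12 and 0.02, none called.

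CRYAB encodes alpha-B-crystallin, a small heat shock protein that acts as cofactor of FBXO4. It stood at 4.75, 4.82 and 4.78 in T286A arrays, at 4.99, 4.86 and 4.83 in wild-type arrays and at 4.98 and 4.96 in empty vector arrays. The T286A arrays were the lowest, and wild type and empty vector overlapped. T286A minus empty vector was -0.19 ± 0.072, or 0.879-fold (interval 0.784 to 0.986, adjusted p = 0.351), with an unadjusted p of 0.0325 by limma, the second of the 2 under 0.05. Against wild type, T286A differed by -0.12 ± 0.065 (adjusted p = 0.48 by limma), and by -0.07 without wild-type replicate 1, the highest array. The other CRYAB probe set had the opposite sign against empty vector, at 0.16 for T286A and 0.26 for wild type. The mean of CRYAB over all arrays, 4.87, lay below the median of all genes, and the values carry no detection call, so whether the transcript was present was not determined.

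FBXO31 is an F-box receptor for cyclin D1 known from the response to DNA damage. It has a single probe set here, which stood at 7.079, 7.151 and 6.999 in T286A arrays, at 7.052, 7.276 and 7.076 in wild-type arrays and at 7.200 and 7.363 in empty vector arrays. T286A lay below empty vector in all arrays, and wild type overlapped both. T286A minus empty vector was -0.21 ± 0.095 (interval -0.42 to 0.01, adjusted p = 0.445 by limma), the lowest value among the 9 genes in that comparison, and wild type minus empty vector was -0.15 ± 0.095 (adjusted p = 0.569). Without wild-type replicate 2, wild type minus empty vector was -0.22 (adjusted p = 0.333 by limma), and T286A minus wild type was 0.01, where it was -0.06 with all arrays. The values rest on the empty vector arrays as well: T286A minus empty vector was -0.29 without empty vector replicate 1 and -0.12 without replicate 2.

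Beside these receptors, 50 other F-box genes were listed, of which 46 were measured. By limma 1 of them was called higher and 0 lower in each construct against empty vector, and 0 in T286A against wild type. The called gene was FBXO5, which encodes EMI1, an inhibitor of the anaphase-promoting complex and not a receptor for cyclin D1. It stood at 11.22, 11.16 and 11.21 in T286A arrays and at 11.21, 11.15 and 11.13 in wild-type arrays, against 10.72 and 10.82 in empty vector arrays. FBXO5 rose by 0.42 ± 0.067 with T286A (adjusted p = 0.0453) and by 0.39 ± 0.067 with wild type (adjusted p = 0.0292). T286A minus wild type was 0.03 ± 0.060. With both constructs together it rose by 0.41 ± 0.060 (adjusted p = 0.0224), a call that stayed in 2 of the 8 fits that leave out 1 array, those without wild-type replicate 2 or 3. The calls for each construct alone were lost in all 8 such fits, with adjusted p from 0.0547 to 0.268 for T286A and from 0.0541 to 0.198 for wild type. The values themselves stayed between 0.38 and 0.47 with T286A and between 0.34 and 0.44 with wild type. With only the groups compared in the fit, FBXO5 was uncalled with T286A (adjusted p = 0.102) and with wild type (0.118). The list median was -0.02 with T286A and 0.02 with wild type. For T286A against wild type, the filter on dim genes and the fit of only those groups each gave 1 called gene in the list. With wild type against empty vector the list held 3 called genes under the filter. It held 2 with array weights and 2 with the mean of all probe sets. With both constructs it held 2 under the filter. With only the groups compared or with the replicate block it held 0 with each construct. Of all 9116 genes kept by the filter, 629 were called with wild type, 624 with both constructs and 381 for T286A against wild type.

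CUL4A is the scaffold and DDB1 the adaptor of the ligase that AMBRA1 directs to D-type cyclins. CUL4A stood at 9.43, 9.54 and 9.55 in T286A arrays, at 9.37, 9.55 and 9.37 in wild-type arrays and at 9.54 and 9.40 in empty vector arrays, so the groups overlapped. T286A differed from empty vector by 0.03 ± 0.085 and from wild type by 0.07 ± 0.076 (interval -0.10 to 0.25, adjusted p = 0.719 by limma), and wild type differed from empty vector by -0.04 ± 0.085. Without wild-type replicate 2, the highest wild-type array, T286A minus wild type was 0.13 (adjusted p = 0.485 by limma) and wild type minus empty vector was -0.10 (adjusted p = 0.663). The other 2 CUL4A probe sets gave 0.02 and 0.09 for T286A minus wild type.

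DDB1 was the steadiest of the 9. It stood at 10.73, 10.65 and 10.64 in T286A arrays, at 10.66, 10.65 and 10.62 in wild-type arrays and at 10.67 and 10.66 in empty vector arrays. All wild-type arrays lay just below the empty vector arrays, and the T286A arrays overlapped both. The differences were 0.00 ± 0.063 for T286A minus empty vector and -0.03 ± 0.063 for wild type minus empty vector (interval -0.17 to 0.12, adjusted p = 0.916 by limma). T286A minus wild type was 0.03 ± 0.057. The intervals of DDB1 stayed between 0.889-fold and 1.12-fold. The other bright DDB1 probe sets gave 0.02 and -0.04 for T286A minus wild type, and a dim one gave -0.21, with wider errors. For wild type minus empty vector the other 3 DDB1 probe sets gave 0.000432 to 0.19, opposite in sign to the brightest and uncalled.

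AMBRA1 is the substrate receptor for D-type cyclins and also a regulator of autophagy. It stood at 7.98, 7.77 and 7.95 in T286A arrays, at 8.02, 7.90 and 7.86 in wild-type arrays and at 7.80 and 7.94 in empty vector arrays, and the groups overlapped. T286A differed from empty vector by 0.03 ± 0.092, wild type from empty vector by 0.06 ± 0.092 and T286A from wild type by -0.03 ± 0.083 (interval -0.22 to 0.16, adjusted p = 0.912 by limma). The other 2 AMBRA1 probe sets, dim ones with means of 5.21 and 5.09, gave 0.23 and 0.18 for T286A minus wild type, neither called. For wild type minus empty vector they gave -0.11 and -0.28, opposite in sign to the brightest and also uncalled. Of 8 partners of AMBRA1 in the start of autophagy 0 were called. Among them PIK3C3, the catalytic lipid kinase, had the smallest p, at -0.24 ± 0.057 for T286A minus wild type (adjusted p = 0.125). It was called there with the filter on dim genes (adjusted p = 0.0318).

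**Figure D3:**
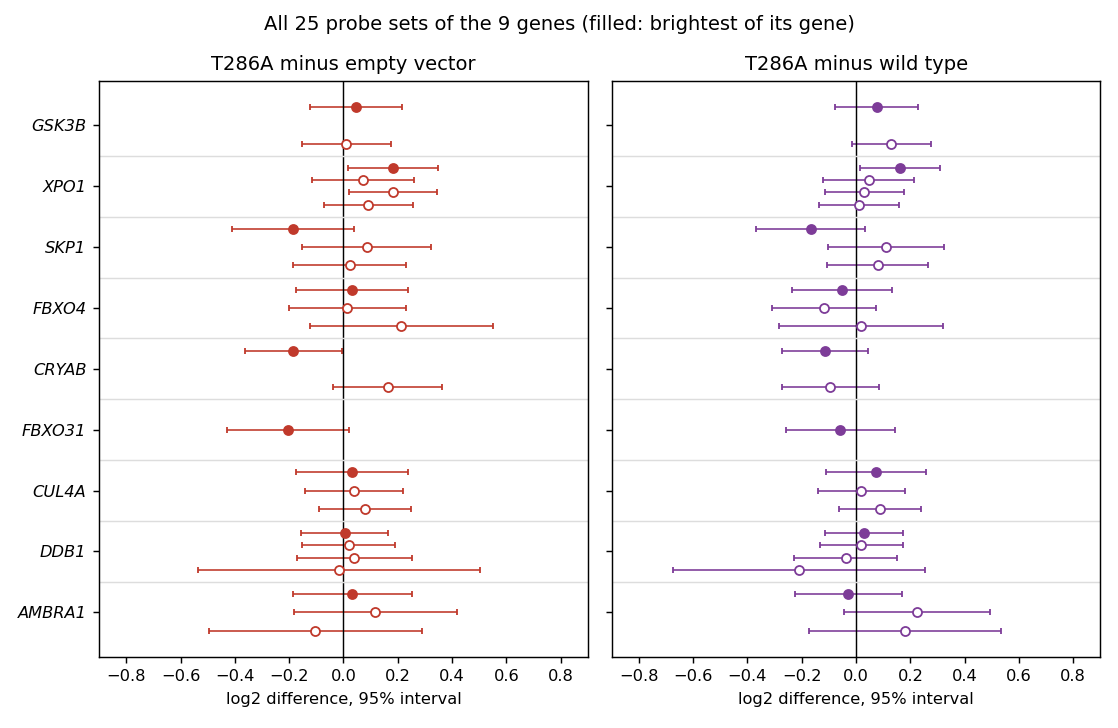
Log2 differences with 95% intervals for all 25 probe sets of the 9 genes, T286A minus empty vector and T286A minus wild type (filled: the brightest probe set of its gene). For SKP1 the other probe sets lie on the opposite side of 0 from the brightest in both panels. The same holds for CRYAB in the left panel and for AMBRA1 in the right panel.

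Taken one by one, 0 of the 25 probe sets were called in any comparison by limma with adjustment over 45220 probe sets. Before adjustment, p was under 0.05 for 3 of 25 with T286A against empty vector (10.5% of all probe sets), for 1 with wild type (11.5%) and for 1 between T286A and wild type (11.7%). The other 16 probe sets had the sign of the brightest one in 11 cases for T286A against empty vector, in 9 for wild type against empty vector and in 9 for T286A against wild type.

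Groups whose arrays did not overlap are common in so small a design. T286A and empty vector did not overlap in 4 of 9 genes, XPO1 above and SKP1, CRYAB and FBXO31 below, against 31.9% of all genes. T286A and wild type did not overlap in 3, XPO1, SKP1 and CRYAB, against 19.8%. Wild type and empty vector did not overlap in 1, DDB1, against 30.5%, and both constructs together did not separate from empty vector in any of the 9, against 13.6%.

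In the wider CUL4-DDB1 list of 22 partners and receptors, all measured, 1 gene was called higher and 0 lower in each construct against empty vector, and 0 in T286A against wild type. The gene was DTL, a receptor of the same DDB1 adaptor that directs the licensing factor CDT1 to degradation during S phase. It stood at 10.91, 10.77 and 10.76 in T286A arrays and at 10.63, 10.57 and 10.62 in wild-type arrays, against 10.15 and 10.20 in empty vector arrays. The 3 groups did not overlap. DTL rose by 0.64 ± 0.072 with T286A (adjusted p = 0.0183 by limma) and by 0.43 ± 0.072 with wild type (adjusted p = 0.0266). T286A minus wild type was 0.20 ± 0.064 (adjusted p = 0.224), so a difference between the forms was not called. With T286A the call was lost in 5 of the 8 fits that leave out 1 array, those that lack a T286A or an empty vector array (adjusted p up to 0.18), and the values stayed at 0.59 to 0.67. With wild type it was lost in 7 of 8, all but the fit without T286A replicate 1 (adjusted p up to 0.181), and the values stayed at 0.41 to 0.46. With both constructs together DTL rose by 0.54 ± 0.064 (adjusted p = 0.0135), lost without either empty vector array. With only the groups compared in the fit, DTL was uncalled with T286A (adjusted p = 0.0759) and with wild type (0.0865). Under the filter on dim genes the list held 2 called genes with wild type and 2 with both constructs. Among all 9116 genes kept by that filter, 629 and 624 were called.

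The remaining ligase parts showed no called gene. Of 20 genes of the cullin-RING core and of neddylation, the modification that switches these ligases on, 19 were measured and 0 were called by limma in any comparison. CUL7, a scaffold of another ligase assigned to cyclin D1, had the smallest p of this list, at -0.37 ± 0.11 for wild type minus empty vector (adjusted p = 0.183). It stood at 5.78, 5.88 and 5.56 in wild-type arrays, against 6.14 and 6.07 in empty vector arrays. Of 16 genes of the PI3K and AKT branch that restrains GSK3B, and of its binding proteins, 13 were measured and 0 called. PIK3CD, the leukocyte catalytic subunit of PI3K, came nearest, with 9.98, 10.05 and 10.07 in wild-type arrays, against 10.33 and 10.47 in empty vector arrays. Its difference was -0.37 ± 0.077 (adjusted p = 0.0589). PIK3CD was called in that comparison with array weights (adjusted p = 0.0474) and with the filter on dim genes (0.0167), and with both constructs under the filter (0.0413). Both deubiquitinases linked to cyclin D1, USP2 and USP22, were uncalled, with USP2 at 0.17 ± 0.061 for T286A minus wild type (adjusted p = 0.269). Among 8 other small heat shock proteins 0 were called, and CRYAA had the smallest p, at 0.20 ± 0.079 for wild type minus empty vector (adjusted p = 0.309).

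**Figure D4:**
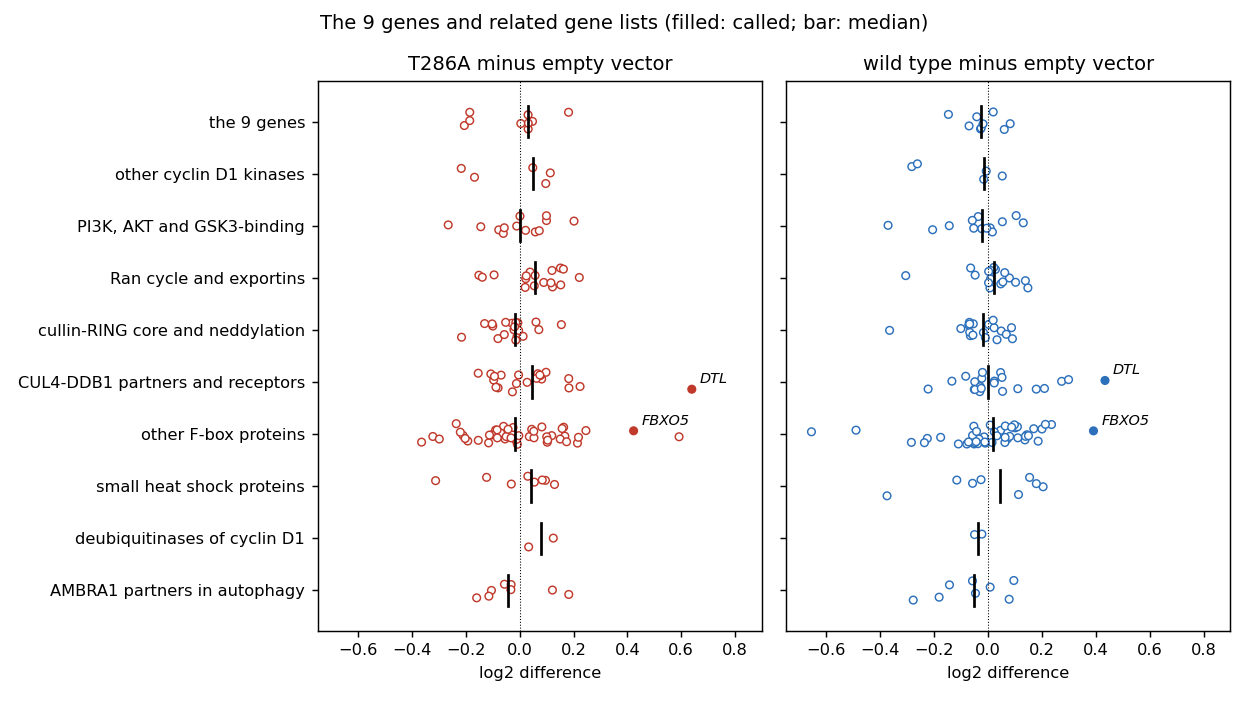
Log2 differences from empty vector of the 9 genes and of 9 related gene lists, with T286A on the left and wild type on the right (points: genes; filled: called by limma; bars: list medians). DTL and FBXO5 are the called genes in both panels, and all list medians lie between -0.05 and 0.08.

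Together these 9 lists held 140 measured genes besides the 9. Of them 2 were called higher and 0 lower in each construct against empty vector, which is 1.43% in each case, against called shares in either direction of 0.532% of all genes with T286A and 1.74% with wild type. The count was 0 in T286A against wild type by limma, where 17 had an unadjusted p under 0.05 (12.1%, against 13.6% of all genes).

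Profiles across the 8 arrays were compared with those of the 9116 genes at or above the median level, for the 3 members with the smallest p of the 3-group F test. The genes most like XPO1 were PEG10 (r = 0.987), HACL1 (r = 0.977) and CCND3 (r = 0.966). Those most like SKP1 were MTIF3 (r = 0.993), ATP5PD (r = 0.99) and ZDHHC18 (r = 0.981), and those most like CRYAB were TMED9 (r = 0.971), CLDN16 (r = 0.954) and NDUFA1 (r = 0.954). These are descriptions over 8 arrays that share groups and normalization, and each is the highest of many values searched. CCND3, which encodes another substrate of AMBRA1, stood at 9.25, 9.18 and 9.23 in T286A arrays, at 9.12, 9.04 and 8.95 in wild-type arrays and at 9.05 and 8.98 in empty vector arrays. T286A minus wild type was 0.19 ± 0.066 for CCND3 (adjusted p = 0.274 by limma).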

How the data were processed

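The deposited values are log2 expression values of 48864 probe sets on 8 Affymetrix arrays, which the authors computed by RMA, and the submitters' processing notes name R 3.5.0. Genome build and chip definition are not given in the sources used here, so no coordinates are printed. Control probe sets (10) were left out. Of the rest, 45220 were annotated to 1 gene, 1325 to several and 2309 to none, and 18231 genes were tested. Groups and replicate numbers come from the sample titles. Among the arrays, 0 pairs held the same values.

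All arrays were fitted together in limma 3.58.1 (R 4.3.3; lmFit, eBayes, default settings, 5 residual and 3.27 prior degrees of freedom), with no intensity filter. Errors are SE unless said otherwise, and intervals are 95%. Fold changes are 2 to the power of the log2 difference. The difference needed for a call is the SE times the t quantile at the largest p that was called in that comparison. The alternatives were housekeeping centring, array weights, the mean of a gene's probe sets, a filter on dim genes, the replicate number as a block, only the groups compared, and each array left out. Testing every probe set separately was added after seeing the data. The fit was tested on simulated data.

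The 9 genes and the lists were chosen with earlier results of these data known. Besides the 9 genes and CCND1, the text names, per list and comparison, up to 3 called genes with the largest change, or the gene with the smallest p where a list had none, and the 3 genes most correlated with each of 3 members. The gene with the smallest p was CD3D for T and NK, ITGAM for myeloid and COL1A1 for epithelial and stromal markers. For the housekeeping genes it was GUSB, at 0.34 for wild type minus empty vector and uncalled. With the filter on dim genes GUSB was called there (adjusted p = 0.0128 by limma). It was also called with housekeeping centring (0.0486) and with the mean of all probe sets (0.032). The number of arrays limits the precision. Protein sequences were not used here.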

Additional observations from a re-analysis of the deposited data

How the results depend on the processing

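Called members numbered 0 in all 4 comparisons under every alternative run: 14, 8 of them fits that leave out 1 array, and 1 fewer for both constructs, whose fit of only the groups compared is the fit of all arrays. The smallest adjusted p was 0.0937, for XPO1 with T286A against empty vector among genes at or above the median level, a filter that drops CRYAB. Of 491 values of the 9 genes under these alternatives, 451 kept their sign and 40 turned it, none of those beyond 0.126 in size. The number and spread of 8 arrays, only 2 of them controls, limit what could be called, and a fit without an empty vector array assumes that the lone control varies like the other groups. The cause of the shifts below was not tested.

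Genes called over the whole table with both constructs numbered 255 and became 436 with array weights, 624 with the filter on dim genes and 7 with the replicate block. With T286A, 97 became 317 with array weights, 190 with the mean of all probe sets, 527 with the filter, 3 with the block and 4 when only the groups compared were fitted. With wild type, 317 became 629 with the filter, 71 with the block and 68 with only the groups compared. Between T286A and wild type, 180 became 381 with the filter and 86 with the block. Leaving out 1 array gave 3 to 199, 1 to 87, 22 to 196 and 70 to 128 in these 4 comparisons. Arrays of the same replicate number showed no sign of moving together. Their deviations correlated at -0.0909 to 0.119, against -0.11 to 0.0962 for unlike numbers. The 2 empty vector arrays deviate as mirror images, so the check cannot exclude pairing. Under the block DTL and FBXO5 were uncalled with both constructs (adjusted p = 0.0896 and 0.127), with T286A (0.145 and 0.196) and with wild type (0.112 and 0.133).

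Signs turned as follows. Under housekeeping centring CUL4A was 0.0057 and DDB1 0.000394 with both constructs, and SKP1 was 0.000202 with wild type. Under the block DDB1 was 0.00302 with both constructs. Under the mean of all probe sets, both constructs gave GSK3B -0.0223, CRYAB 0.0414, AMBRA1 -0.0479, CUL4A 0.0202, DDB1 0.0365 and USP2 -0.0313, wild type gave CRYAB 0.094, AMBRA1 -0.111 and DDB1 0.0613, and T286A against wild type gave AMBRA1 0.126, DDB1 -0.0497, SKP1 0.00821 and CUL7 -0.0216. Leaving out 1 array with both constructs, CUL4A spanned -0.0762 to 0.0656, GSK3B -0.0368 to 0.0567, AMBRA1 -0.0242 to 0.116 and CD3D -0.0878 to 0.0207. With T286A, FBXO4 spanned -0.0216 to 0.0822, AMBRA1 -0.0385 to 0.102, DDB1 -0.0225 to 0.0201, ITGAM -0.015 to 0.103 and CUL4A -0.0398 to 0.102. With wild type, XPO1 spanned -0.00558 to 0.0492, SKP1 -0.0924 to 0.0518, AMBRA1 -0.00986 to 0.131, CUL4A -0.113 to 0.0291 and GSK3B -0.0744 to 0.0191. Between T286A and wild type, AMBRA1 spanned -0.0705 to 0.0367, CCND1 -0.158 to 0.0373, COL1A1 -0.253 to 0.0486 and FBXO31 -0.0995 to 0.0121.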
